A study of Volvox carteri with 12 samples.

Results

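In the green alga Volvox carteri each spheroid holds many small somatic cells and a few large reproductive cells, the gonidia. The comparison described here sets somatic cells against gonidia after both had been exposed to ultraviolet B light (UV-B), and its members are the 7990 loci that could be followed through all 5 libraries involved. These libraries are somatic A, B and C (n = 3) and gonidia B and C (n = 2), all from wild-type strain Eve10 at the stage between maturation and embryogenesis. The spheroids grew at 28 °C in a cycle of 16 h light and 8 h dark, with photosynthetically active radiation of 100 µmol per m2 per s. They received UV-B for 1 h at 0.056 mW/cm2, so every library of the comparison carries the treatment and none is an untreated control. White-light somatic cells and white-light gonidia (n = 3 each) of the same strain and stage are used only as a second measure of the same loci. The labels name 12 libraries in all; UV-B gonidia A was left out because all 4073 of its reference gene rows were at 0.

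Each deposited table lists its own gene rows, so rows of the 5 libraries were linked by position: a pair of rows had to share 80% or more of the length of the longer one. There were 10331 linked sets with exactly 1 row in every library. A set became a member when it reached 1 FPKM (fragments per kilobase of transcript, relative to the mapped fragments of the library) in at least 2 libraries, which kept 7990 and left out 2341. Of the members, 7272 reached 1 FPKM in both cell types, 573 passed through gonidia only and 145 through somatic cells only. In these last 2 sets the filter itself favoured a difference between the cell types, so no p is given for a named locus among them. The locus just inside the limit lies on scaffold 4, 2727759 to 2734728, at 0.197, 0.0209 and 0.0235 FPKM in somatic cells and 2.39 and 1.002 FPKM in gonidia. The locus just outside lies on scaffold 40, 699113 to 699770, at 0.715, 0.999 and 0.506 FPKM in somatic cells and 0 and 1.09 FPKM in gonidia. Over all 11 usable libraries of the series, 9591 sets had exactly 1 row in each.

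Somatic cells are biflagellate, keep the spheroid moving towards light, secrete extracellular matrix and do not divide. Gonidia do not swim, grow large and cleave to form the next generation. The division of labour is held in place by the transcriptional repressor RegA, which acts in somatic cells. UV-B is read in green algae by the photoreceptor UVR8, and repair enzymes such as photolyases reverse the DNA lesions it causes. None of the 8623 reference IDs in the tables was found among the 14334 genes of the RefSeq table used here, so neither these genes nor other cell type markers were looked up, and loci are named by reference ID and position.

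The confidence limits beside the FPKM values imply a median of 164 to 506 fragments per linked locus, depending on the library. Rows under 200 bp held 61.2% to 66.9% of the summed FPKM of a library, and the linked loci 30.5% to 38.4%. For this reason all values below were scaled to the median ratio over loci of 1 FPKM or more in every library, and they remain per length. Cell type was the main axis of variation among the 5 libraries (79.2% of the variance), along which somatic libraries lay at -56.2, -56.1 and -59.5 and gonidia libraries at 61.7 (B) and 110.2 (C). Somatic libraries correlated with one another across loci at r = 0.945 to 0.968 and the gonidia libraries at 0.906, and loci are not independent replicates.

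Gonidia B stood nearer to somatic cells than gonidia C. At 495 loci chosen in white light (at least 20 FPKM in somatic cells and 5 times the level in gonidia), gonidia B held a median of 22.5% of the UV-B somatic mean (quartiles 18.2% and 27.1%). In gonidia C it was 4.10% (1.85% and 9.38%). At 360 loci chosen likewise for gonidia, somatic A, B and C held 10.2%, 7.33% and 8.23% of the UV-B gonidial mean. In bulk RNA, fewer cells of a type and less RNA per cell cannot be told apart, and the part that RNA of the other cell type has in each result was not tested.

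Under UV-B the cell types differed at 44.9% of the loci. Of 7990 loci, 1527 (19.1%) were higher in somatic cells and 2060 (25.8%) were higher in gonidia (limma, adjusted p under 0.05). Of these, 76 and 553 were members that had reached 1 FPKM in that cell type only, and over the 7272 that reached it in both the counts were 1451 and 1507, close to even. Most of the calls were 2-fold or larger, 1386 (17.3%) towards somatic cells and 1883 (23.6%) towards gonidia. At 8-fold or more, 290 (3.63%) were left for somatic cells and 313 (3.92%) for gonidia, of which 9 and 89 had reached 1 FPKM in that cell type only. Over members that reached it in both, the 8-fold counts were 281 for somatic cells and 224 for gonidia. Loci higher in somatic cells had a median level of 26.1 FPKM there, against 6.32 FPKM in gonidia. Loci higher in gonidia had a median level of 2.08 FPKM in somatic cells, against 12.3 FPKM in gonidia. The libraries of the cell types did not overlap at 2504 loci (31.3%) with somatic cells above and at 2991 (37.4%) with gonidia above. These counts and those at 2-fold include members that reached 1 FPKM in 1 cell type only. The median log2 difference of all loci, somatic minus gonidia, was -0.12 with this scaling and 0.018 after quantile normalization, so directions are relative to the scaling, and the somatic share of the calls was 42.6% here, 36.4% on unscaled FPKM and 50.3% with quantile normalization. The number higher in somatic cells fell to 882 without somatic A, to 791 without somatic C and to 966 without gonidia C, and the number higher in gonidia fell to 1298 without somatic C.

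**Figure D1:**
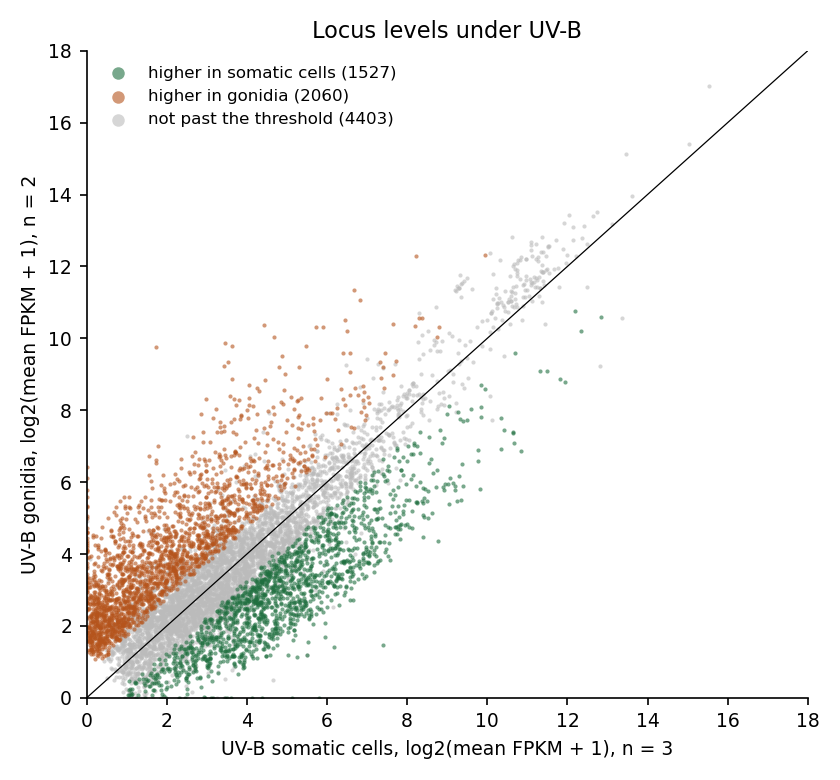
Mean level of each of the 7990 loci in UV-B somatic cells (horizontal axis, n = 3) and UV-B gonidia (vertical axis, n = 2), both as log2(mean FPKM + 1); points below the diagonal are higher in somatic cells. The 1527 green loci and 2060 orange loci passed the threshold, and the loci at the upper right lie mostly in grey near the diagonal.

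The balance between the cell types changed with the level of a locus. Among 2426 loci whose higher mean lay between 3 and 10 FPKM, 9.81% were higher in somatic cells and 27.3% in gonidia. Among 499 loci between 100 and 300 FPKM the order was turned round, with 36.1% higher in somatic cells and 22.2% in gonidia. For the 1922 loci between 30 and 300 FPKM the somatic share exceeded the gonidial share by 7.60 percentage points, and it stayed above in all 11 alternative settings and left-out libraries run, by 1.46 to 10.6 points. For the 3314 loci under 10 FPKM the somatic share was 17.9 points below the gonidial share, but 0.121 points above it after quantile normalization. The filter takes part in this gap: without the members that reached 1 FPKM in 1 cell type only, the somatic share minus the gonidial share was -7.25 points. At 300 FPKM or more, 19.0% were higher in somatic cells and 16.6% in gonidia.

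Length and annotation went with direction as well. Of 1865 loci with rows of 8000 bp or longer, 26.5% were higher in somatic cells and 16.7% in gonidia, while each of the 4 classes of shorter rows had a gonidial majority. Rows of the loci higher in somatic cells had a median length of 5417 bp (quartiles 2763 and 9460), against 4144 bp (2307 and 6382) for those higher in gonidia. The somatic excess among long rows ranged from 0.375 to 19.2 points over the same 11 settings, and over members that reached 1 FPKM in both cell types it was 15.1 points. A row spans introns and may join neighbouring genes, so its length is not that of a transcript. Among 680 loci that carried the same reference ID in all 5 libraries, 14.3% were higher in somatic cells and 39.4% in gonidia, and among 4693 loci with no reference ID, 20.8% and 17.6%. Over members that reached 1 FPKM in both cell types, the shares at loci with an ID in all 5 were 14.8% and 31.6%. The order at loci with no ID was turned round on FPKM as deposited (-0.767 points) and without gonidia C (-0.916 points).

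**Figure D2:**
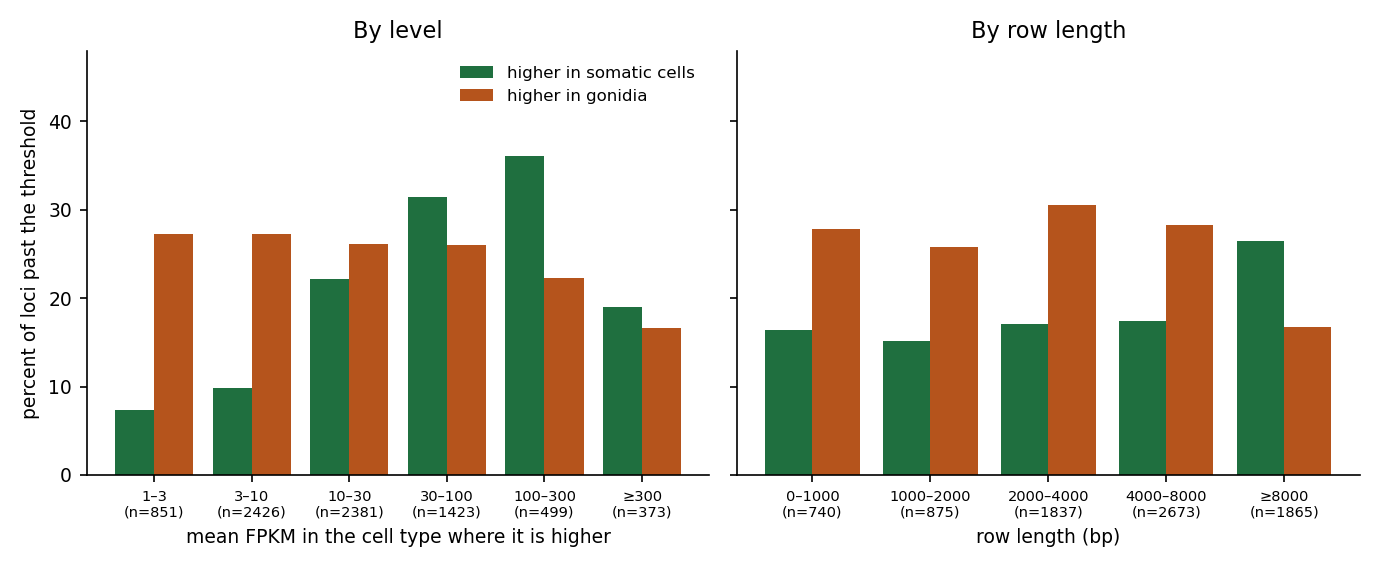
Percent of loci past the threshold that were higher in somatic cells (green, left bar) or in gonidia (orange, right bar), grouped by the mean FPKM in the cell type where the locus is higher (left panel) and by row length in bp (right panel); n is the number of loci in each class. Somatic bars exceed gonidial bars from 30 FPKM upwards and in rows of 8000 bp or longer.

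Loci with undisturbed rows were used for single descriptions. These 462 loci carried a reference ID in every library, were covered by another row over at most 10% of their length, and overlapped by at least 95% between every pair of libraries. Of them 60 (13%) were higher in somatic cells and 190 (41.1%) in gonidia, of which 8 and 67 had reached 1 FPKM in that cell type only. The named loci are those with the largest difference, the lowest p and the highest level in each direction, which gave 11 loci for somatic cells and 12 for gonidia.

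The most abundant named locus higher in somatic cells was Vocar20006546m.g.2.0 (scaffold 7, 1947943 to 1950484). It stood at 2970, 2960 and 2742 FPKM in somatic A, B and C and at 836 and 260 FPKM in gonidia B and C. The cell types did not overlap, and the log2 difference was 2.63 ± 0.56 (SE; limma, adjusted p = 0.0151), though the call was lost without somatic A or C and the difference was 1.68 without gonidia C. Vocar20013684m.g.2.0 (scaffold 56, 332737 to 334021) came next, at 830, 879 and 1039 FPKM in somatic cells and 294 and 154 FPKM in gonidia (limma, adjusted p = 0.00988). With limma-voom on the implied fragments its log2 difference was 0.66, against 2.09 as reported, and the call was lost (adjusted p = 0.078).

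The largest difference between levels measured above 0 in this direction belonged to Vocar20012891m.g.2.0 (scaffold 3, 4142164 to 4143654), at 651, 659 and 705 FPKM in somatic cells and 102 and 14.1 FPKM in gonidia B and C. Its log2 difference was 4.09 ± 0.79 (SE; limma, adjusted p = 0.0114), and 2.60 without gonidia C. The somatic libraries lay close together, while gonidia B was several times above gonidia C. The same order of the gonidia libraries was seen at Vocar20005370m.g.2.0 (scaffold 83, 5837 to 6884), with 519, 496 and 457 FPKM in somatic cells and 109 and 12.5 FPKM in gonidia. Its log2 difference of 3.68 ± 0.85 (SE; limma, adjusted p = 0.0189) missed the threshold when any one somatic library was left out, at adjusted p = 0.0552, 0.0553 and 0.0532, and was 2.05 without gonidia C.

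Other large somatic differences had the same shape. Vocar20011502m.g.2.0 (scaffold 5, 2508311 to 2512237) was at 148, 113 and 130 FPKM in somatic cells and 22.3 and 2.51 FPKM in gonidia. Vocar20006036m.g.2.0 (scaffold 12, 2747117 to 2750013) was at 127, 57.7 and 98.6 FPKM in somatic cells and 15.4 and 1.48 FPKM in gonidia. Vocar20015256m.g.2.0 (scaffold 26, 1352558 to 1354770) was at 137, 133 and 127 FPKM in somatic cells and 27.3 and 2.20 FPKM in gonidia. In each of them the lowest somatic library exceeded gonidia B, and gonidia B exceeded gonidia C (limma, adjusted p between 0.0129 and 0.0186). Without gonidia C their log2 differences were 2.38, 2.37 and 2.13, against 3.85, 3.83 and 3.804 as reported. The call at Vocar20015256m.g.2.0 was lost without any one somatic library.

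At the next loci the differences were smaller and so were their standard errors. Vocar20010880m.g.2.0 (scaffold 4, 225453 to 229189) was at 19.4, 21.0 and 19.0 FPKM in somatic cells and 5.30 and 2.83 FPKM in gonidia, a log2 difference of 2.08 ± 0.30 (SE; limma, adjusted p = 0.00570). Vocar20007184m.g.2.0 (scaffold 13, 994206 to 997244) was at 23.4, 16.1 and 17.2 FPKM in somatic cells and 4.16 and 1.83 FPKM in gonidia. At Vocar20013407m.g.2.0 (scaffold 58, 275544 to 276774) the levels were 214, 176 and 258 FPKM in somatic cells and 54.6 and 24.5 FPKM in gonidia (limma, adjusted p = 0.00761). The groups did not overlap at any of these loci. Vocar20003279m.g.2.0 (scaffold 21, 950412 to 951139) stood at 11.4, 9.63 and 8.70 FPKM in somatic cells and was listed at 0 in both gonidia libraries, so that it reached the filter through somatic cells alone.

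Gonidia B exceeded gonidia C at 55 of the 60 undisturbed loci higher in somatic cells and at 71 of the 190 higher in gonidia. Over all loci it did so at 1375 of the 1527 higher in somatic cells, 865 of the 2060 higher in gonidia and 4749 of the 7990 tested.

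**Figure D3:**
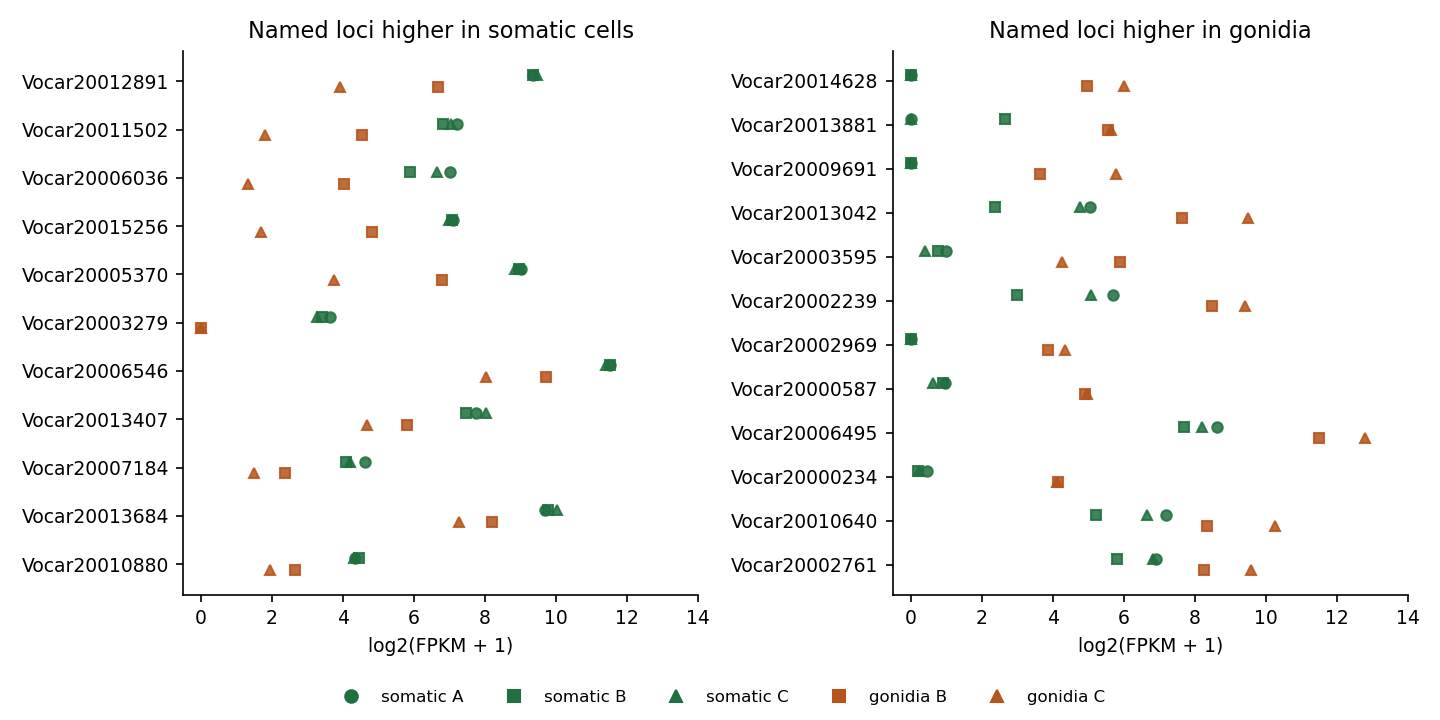
Level of the named loci in each library as log2(FPKM + 1), with somatic libraries in green and gonidia libraries in orange (circle A, square B, triangle C); reference IDs are shortened to the part before the letter m. In the left panel gonidia B lies between gonidia C and the somatic libraries at 10 of 11 loci, and both gonidia libraries are at 0 at Vocar20003279.

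The first 6 named gonidial loci reached the filter through gonidia alone, and their values are a description. Vocar20014628m.g.2.0 (scaffold 27, 1611105 to 1613288) was at 0 in each of the 3 somatic tables and stood at 30.4 and 63.4 FPKM in gonidia. Vocar20009691m.g.2.0 (scaffold 1, 9957576 to 9961792) was also listed at 0 in every UV-B somatic library, with 11.3 and 53.6 FPKM in gonidia. Vocar20002969m.g.2.0 (scaffold 2, 584391 to 591463) was listed at 0 in somatic cells and stood at 13.7 and 19.2 FPKM in gonidia. At each of these 3 loci another row overlapped part of the length, a share of at most 0.0137, 0.0695 and 0.0284 in the order given.

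At the other 3 the somatic level was measured above 0. Vocar20000587m.g.2.0 (scaffold 19, 47181 to 50792) was at 0.9503, 0.871 and 0.545 FPKM in somatic cells and 28.9 and 30.2 FPKM in gonidia. Vocar20000234m.g.2.0 (scaffold 18, 1560920 to 1565901) was at 0.361, 0.144 and 0.170 FPKM in somatic cells and 16.7 and 16.5 FPKM in gonidia. In both, the gonidia libraries agreed more closely than the somatic ones. Vocar20003595m.g.2.0 (scaffold 33, 340120 to 343812) was at 0.973, 0.712 and 0.312 FPKM in somatic cells and 58.6 and 18.3 FPKM in gonidia. Here gonidia B was the higher gonidia library.

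The gonidial loci that follow reached 1 FPKM in both cell types. The most abundant was Vocar20006495m.g.2.0 (scaffold 7, 3247658 to 3247994), a short row at 392, 206 and 296 FPKM in somatic cells and 2874 and 7052 FPKM in gonidia. Its log2 difference was -3.96 ± 0.52 (SE; limma, adjusted p = 0.00487). Vocar20002239m.g.2.0 (scaffold 20, 673251 to 676329) was at 50.3, 6.86 and 32.8 FPKM in somatic cells and 354 and 680 FPKM in gonidia. Vocar20013042m.g.2.0 (scaffold 30, 531914 to 535748) was at 31.9, 4.13 and 26.3 FPKM in somatic cells and 200 and 722 FPKM in gonidia. Vocar20002761m.g.2.0 (scaffold 2, 4859543 to 4860879) was at 118, 54.8 and 112 FPKM in somatic cells and 307 and 760 FPKM in gonidia. In all of these somatic B was the lowest library and gonidia C the highest (limma, adjusted p between 0.00487 and 0.0169). Without gonidia C the last 3 missed the threshold, and with limma-voom Vocar20002239m.g.2.0 and Vocar20013042m.g.2.0 did (adjusted p = 0.0611 and 0.0691).

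Vocar20010640m.g.2.0 (scaffold 4, 869002 to 869985) was at 145, 36.1 and 99.5 FPKM in somatic cells and 325 and 1226 FPKM in gonidia. Its call (limma, adjusted p = 0.0298) was lost without somatic B, somatic C or gonidia C, at adjusted p = 0.0667, 0.0708 and 0.143, and with limma-voom (adjusted p = 0.0653). Vocar20013881m.g.2.0 (scaffold 6, 3792469 to 3797864) was listed at 0 in somatic A and C and at 5.22 FPKM in somatic B, against 46.1 and 49.0 FPKM in gonidia (limma, adjusted p = 0.00974), and its call needed both gonidia libraries.

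A missed threshold did not by itself place the cell types close together. Of the 4403 loci that did not pass, 1054 (13.2% of those tested) had a 95% interval wholly within 1 log2 unit of 0, and 3349 had not. The first number was 274 on unscaled FPKM, 652 with a pseudocount of 0.1, 651 with library weights, 461 without somatic A and 346 without somatic C. The highest undisturbed member of the first set was Vocar20001392m.g.2.0 (scaffold 24, 727770 to 728532), at 399, 448 and 430 FPKM in somatic cells and 347 and 549 FPKM in gonidia. Its log2 difference was -0.038, with an interval of -0.84 to 0.76. Vocar20000793m.g.2.0 (scaffold 16, 769176 to 771260) had 102, 105 and 104 FPKM in somatic cells and 90.6 and 123 FPKM in gonidia, with an interval of -0.66 to 0.60. Vocar20004311m.g.2.0 (scaffold 8, 3228754 to 3229776) and Vocar20011162m.g.2.0 (scaffold 43, 915436 to 916908) had intervals of -0.92 to 0.77 and -0.97 to 0.37. At these 4 loci the somatic values lay between the gonidia values or, at the last, reached above the lower of them.

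The loci with the highest FPKM were largely common to both cell types. Of the 100 loci with the highest mean in somatic cells, 78 were among the 100 highest in gonidia. The 10 highest held 21.4% of the FPKM of the tested loci in somatic cells and 28.2% in gonidia. The highest in both were very short rows of 83, 79, 63 and 111 bp. Their means were 47750, 33430, 12550 and 11230 FPKM in somatic cells and 131900, 43270, 16070 and 36020 FPKM in gonidia. The rows of 79 and 63 bp were covered in full by other rows in at least 1 library. FPKM are per length, so these shares are not shares of transcripts from abundant genes. Of the somatic 100, 8 were higher in somatic cells and 0 in gonidia, and of the gonidial 100, 0 were higher in somatic cells and 3 in gonidia (limma, adjusted p under 0.05). Over all loci the shares were 19.1% and 25.8%, so these lists lay below them. The standard error was larger there than elsewhere, with a median of 0.60 and 0.63 log2 units in the 2 lists and 0.32 over all loci. Among the abundant loci that passed was Vocar20007377m.g.2.0 (scaffold 13, 2775036 to 2777028), chosen after its values were seen, at 7183, 7335 and 7517 FPKM in somatic cells and 1999 and 1096 FPKM in gonidia (limma, adjusted p = 0.0133).

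Few loci were found in one cell type and not in the other. Only 5 loci (0.0626%) had at least 10 FPKM in every somatic library and under 0.5 FPKM in both gonidia libraries, while 32 (0.401%) had the reverse. With gonidia B not considered the first number was 105. At these 105 loci gonidia B ranged from 0 to 32.8 FPKM with a median of 4.52 FPKM, and its median was 19.5% of the somatic mean. Without gonidia C the numbers were 20 and 53.

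The 5 somatic loci are given here after their values were seen. Vocar20013734m.g.2.0 (scaffold 54, 125719 to 127702) was at 34.3, 35.4 and 31.2 FPKM in somatic cells, Vocar20008586m.g.2.0 (scaffold 1, 10598941 to 10601457) at 20.5, 16.6 and 21.7 FPKM, and Vocar20002566m.g.2.0 (scaffold 2, 3702600 to 3704493) at 18.6, 13.7 and 17.4 FPKM. The other two carry no reference ID: scaffold 15, 1546078 to 1546519, at 51.0, 56.2 and 57.9 FPKM, and scaffold 6, 3095963 to 3099273, at 11.4, 11.1 and 10.9 FPKM. All 5 were listed at 0 in both gonidia libraries. Another row overlapped every one of them and was measured in gonidia. At Vocar20008586m.g.2.0 that row (from 10600784 to 10603259) was at 86.9, 103 and 97.1 FPKM in somatic cells and at 86.9 and 102 FPKM in gonidia.

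Most of the zeros among these loci lay beside another row. Of the 32 gonidial loci, 23 were listed at 0 in all somatic libraries, and another row touched or overlapped all 23, as it did all 5 somatic loci. Over all loci tested, another row touched 62.4%. At the 23 the share of the row covered by others ranged from 0.0099 to 1, and 21 of the 32 were not covered over 10%. The authors' software assigns the fragments of shared stretches. Its part in these zeros was not tested, so such a 0 is not taken as a measure of absence. Vocar20007903m.g.2.0 (scaffold 15, 1869453 to 1871963) was the highest of the 23, at 75.9 and 94.8 FPKM in gonidia. At Vocar20004025m.g.2.0 (scaffold 36, 451904 to 454803), at 39.8 and 97.8 FPKM in gonidia, the overlapping row held 785, 465 and 651 FPKM in somatic cells and 231 and 202 FPKM in gonidia.

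The other 9 gonidial loci were measured above 0 in at least 1 somatic library. Of these, 2 were touched by no other row, and both are named after their values were seen. Vocar20008367m.g.2.0 (scaffold 1, 1691044 to 1702292) was at 0.134, 0.179 and 0.129 FPKM in somatic cells and 17.0 and 19.2 FPKM in gonidia. Vocar20012207m.g.2.0 (scaffold 47, 158548 to 161144) was at 0.322, 0 and 0.345 FPKM in somatic cells and 12.5 and 15.8 FPKM in gonidia. Both stood far below 1 FPKM in every somatic library.

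Directions were also compared between neighbours along the scaffolds. Among 5192 loci not covered over 10% by another row, 311 pairs of consecutive loci within 1000 bp were both called, and 201 of these (64.6%) had the same direction. For pairs over 10000 bp apart it was 223 of 449 (49.7%). No test was made, and adjoining rows can be parts of a single gene. Runs of at least 5 consecutive loci called in one direction numbered 1 for somatic cells and 12 for gonidia. Of the calls among the 5192 loci, 38.8% were for somatic cells, and the gonidial calls include members that reached 1 FPKM in gonidia only. Whether the runs go beyond these shares was not tested.

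The longest somatic run held 6 loci on scaffold 3, from 4126148 to 4235421. Its first 4 loci lay within 4126148 to 4143654. Of these, the first was at 378, 295 and 432 FPKM in somatic cells and 89.8 and 16.9 FPKM in gonidia. Vocar20012905m.g.2.0, the next, was the most abundant, at 1330, 1082 and 1500 FPKM in somatic cells and 199 and 43.2 FPKM in gonidia. The third, from 4138123 to 4140138, was at 237, 247 and 139 FPKM in somatic cells and 56.2 and 13.7 FPKM in gonidia, and Vocar20012891m.g.2.0, described above, followed. The remaining 2 loci, Vocar20012641m.g.2.0 and Vocar20012773m.g.2.0, lay further along and were low, with 3.24, 1.53 and 1.78 FPKM in somatic cells and 0.613 and 0.0388 FPKM in gonidia at Vocar20012641m.g.2.0. The first 4 differences passed at adjusted p between 0.00898 and 0.0171 (limma), and at the last 2 no gonidia library reached 1 FPKM.

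The longest gonidial run held 7 loci on scaffold 8, from 1197479 to 1264031. The largest difference was at Vocar20004706m.g.2.0 (1233233 to 1238095), with 4.75, 0.667 and 1.58 FPKM in somatic cells and 90.7 and 103 FPKM in gonidia, a log2 difference of -5.07. On its left, Vocar20004473m.g.2.0 was at 8.92, 8.95 and 6.03 FPKM in somatic cells and 77.6 and 88.3 FPKM in gonidia. On its right, Vocar20004699m.g.2.0 was at 3.12, 3.05 and 1.65 FPKM in somatic cells and 55.2 and 65.1 FPKM in gonidia. Vocar20004278m.g.2.0 followed at 1.39, 0.324 and 0.651 FPKM in somatic cells and 22.2 and 29.2 FPKM in gonidia. The gonidia libraries agreed closely at all of these, and the first 2 loci of the run and its last, Vocar20004666m.g.2.0, differed less, with log2 differences of -1.37, -1.26 and -1.71 (limma, adjusted p between 0.00166 and 0.0326 over the last 6 loci). At the first locus no somatic library reached 1 FPKM.

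**Figure D4:**
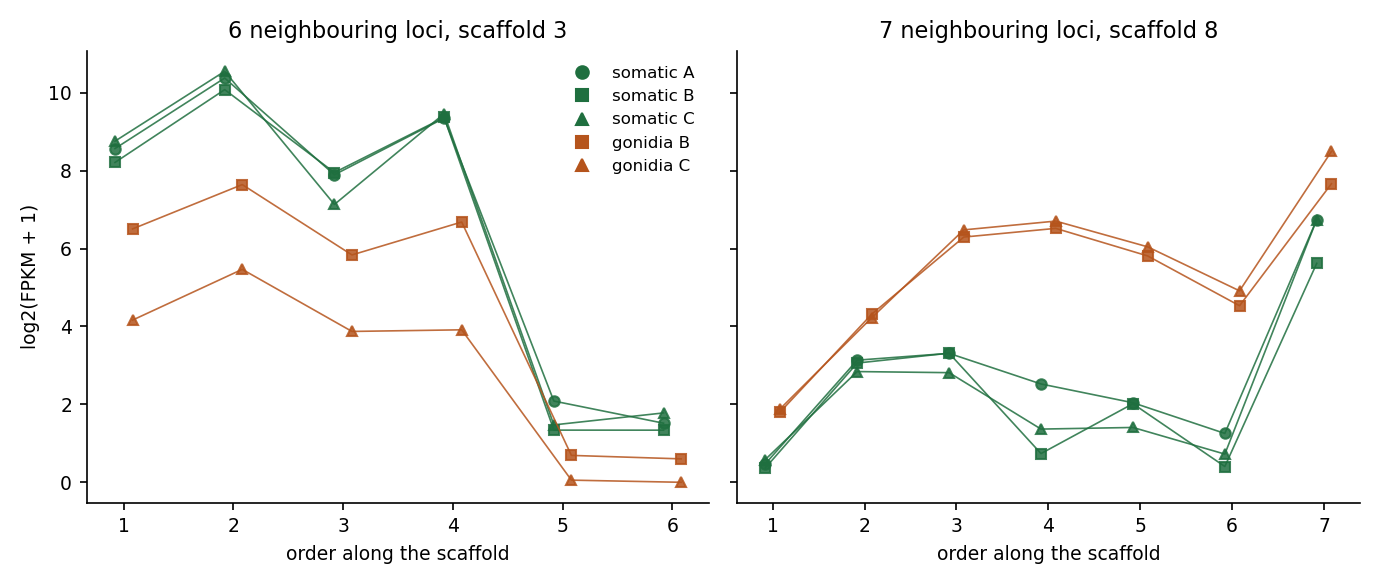
Level of each locus of the longest run higher in somatic cells (left, 6 loci on scaffold 3) and of the longest run higher in gonidia (right, 7 loci on scaffold 8), in order along the scaffold, as log2(FPKM + 1); lines join the loci of 1 library and are no measured course between them. In the left panel somatic libraries lie above both gonidia libraries at every locus, with gonidia B above gonidia C, and in the right panel both gonidia libraries lie above all somatic libraries.

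White-light libraries, which had no part in choosing the loci, gave a second measure at the 7036 members that also had exactly 1 row in each white-light table. Libraries of the same letter and cell type had alike values in both lights at some loci. Vocar20013407m.g.2.0 stood at 214, 176 and 258 FPKM in UV-B somatic A, B and C and at 216, 174 and 258 FPKM in white light. At other loci, such as Vocar20010723m.g.2.0 below, the somatic libraries did not. Nothing says whether such libraries share a culture, so the second measure may not be independent. Of the 290 loci at least 8-fold higher in UV-B somatic cells, 252 were among the 7036. Of these, 247 were higher in somatic cells in white light too (limma, adjusted p under 0.05), against 27.5% of all 7036. Of the 313 at least 8-fold higher in gonidia, 277 were shared and 275 passed in white light, against 33.8% of all. The somatic list holds 9 members, and the gonidial list 89, that reached 1 FPKM under UV-B in that cell type only. These were not counted apart in white light, so no conclusion is drawn from the shares. The median log2 difference of these lists was 3.52 under UV-B and 3.92 in white light for the somatic loci, and -3.66 and -3.58 for the gonidial loci. Of the named loci, 10 of the 11 higher in somatic cells and all 12 higher in gonidia were shared. White-light log2 differences of the shared somatic loci lay between 2.01 and 4.52, all past the threshold. Those of the gonidial loci that reached 1 FPKM in both cell types lay between -5.53 and -2.42, all past it too. At the gonidial loci that reached the filter through gonidia alone they lay between -5.63 and -3.785, and these values are a description. The 32 loci found in gonidia only had by definition reached the filter through gonidia alone. Of these, 31 were shared and all 31 passed in white light. The somatic-only locus that missed the threshold there was scaffold 6, 3095963 to 3099273, where white-light somatic B was listed at 0 and white-light gonidia B stood at 7.96 FPKM. Of 922 shared loci with an interval within 1 log2 unit under UV-B, 132 (14.3%) passed in white light, in either direction.

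**Figure D5:**
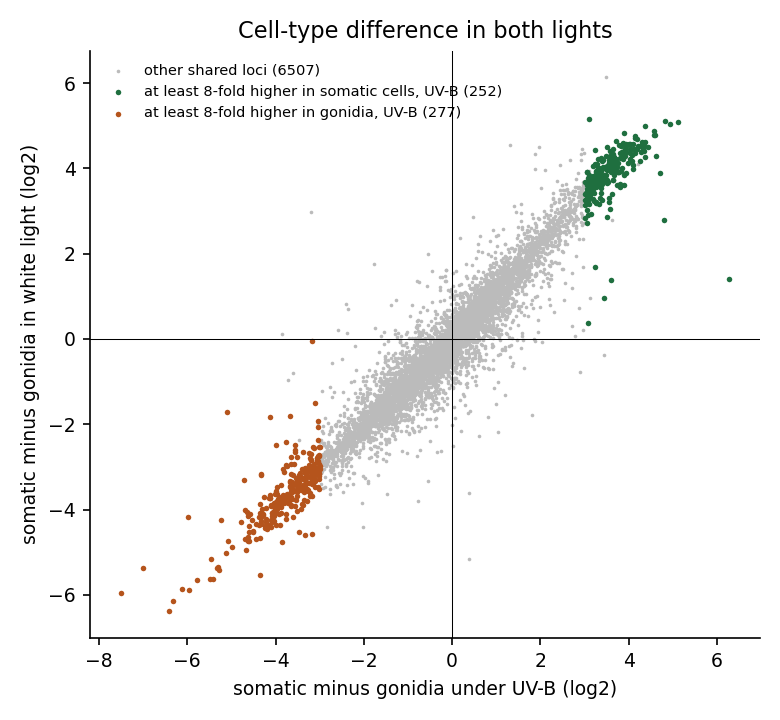
Log2 difference, somatic minus gonidia, of the 7036 shared loci under UV-B (horizontal axis) and in white light (vertical axis); loci at least 8-fold higher under UV-B in somatic cells (252, green) or gonidia (277, orange) are coloured. Coloured loci all lie in the upper right or lower left part, so their sign was the same in both lights.

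The cell-type difference itself was tested against that in white light. At an unadjusted p under 0.05 (limma), the difference was more positive under UV-B at 83 loci and less positive at 64. With a block for each cell type and letter, 505 loci reached that unadjusted p, against 147 without it. After adjustment the difference was more positive under UV-B at 3 of 7036 loci (0.0426%) and less positive at 0 (limma, adjusted p under 0.05). Without gonidia B these counts were 7 and 4, without gonidia C 9 and 3, and without white-light somatic C 7 and 1. At Vocar20002813m.g.2.0 (scaffold 2, 455263 to 456043) UV-B somatic cells and UV-B gonidia were close, at 52.2, 55.8 and 50.3 FPKM and at 32.5 and 49.4 FPKM (limma, adjusted p = 0.284). A longer row covers this locus in full and was at 98.7, 83.0 and 85.9 FPKM in somatic cells and 18.4 and 8.36 FPKM in gonidia. The locus at scaffold 34, 521074 to 525819, was likewise close, at 12.4, 13.2 and 15.1 FPKM in UV-B somatic cells and 9.65 and 10.5 FPKM in UV-B gonidia (limma, adjusted p = 0.219). Both stood at 0 in every white-light somatic library, with 37.4, 30.1 and 37.2 FPKM in white-light gonidia at Vocar20002813m.g.2.0 and 8.55, 10.9 and 15.4 FPKM at the locus on scaffold 34. Another row overlapped the right end of the scaffold 34 locus in each UV-B somatic library, at 39.4, 22.1 and 30.7 FPKM. In UV-B gonidia B no other row overlapped it, and in UV-B gonidia C short rows within it were at 8.64 and 2.87 FPKM. The third locus, on scaffold 1 from 10666599 to 10684799, was at 16.9, 26.2 and 28.5 FPKM in UV-B somatic cells and 2.53 and 2.04 FPKM in UV-B gonidia. In both gonidia libraries its row began only at 10668782, and the left stretch formed a row of its own (10666681 to 10668690) at 34.2 and 43.2 FPKM, so unlike stretches were compared.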

How the data were processed

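RNA-seq tables of Volvox carteri were analysed. Per the file headers, each deposited table gives gene-level FPKM of 1 library with 95% confidence limits and a status. Per the submitters' processing notes the tools were TopHat2 (version 2), Cufflinks 2.0.1 and Cuffdiff 2. Libraries were polyA-selected, per the labels' protocols. No genome build or annotation is given in the sources used here. Coordinates are those of the UV-B somatic A table.

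Rows were linked as connected sets, so 814 loci hold a pair of rows that overlap by less than 80%. FPKM were divided by median-of-ratios factors and put on a log2(FPKM + 1) scale, which understates the differences of low loci. limma 3.58.1 (R 4.3.3) was fitted with moderated variances that follow a trend in level, and Benjamini-Hochberg adjustment over all loci and a threshold of 0.05. Differences are somatic minus gonidia. The fit over the 5 UV-B libraries gave the main comparison, and a fit of 4 group means over 11 libraries gave the white-light and interaction contrasts. In the limma-voom alternative, fragments implied by the confidence limits replaced FPKM, with median-of-ratios library sizes. Nothing says that same-group libraries came from separate cultures, so p-values measure the spread between these libraries. Linking and figures used Python 3.11.15, pandas 2.3.3 and matplotlib 3.10.9.

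Named loci were, among undisturbed loci past the threshold, the 6 with the largest difference, the 4 with the lowest p and the 4 with the highest mean in each direction, plus the 4 most abundant bounded loci and up to 6 interaction loci. The members, lists and groupings were chosen with earlier results of these data known. Alternatives were other scalings, pseudocounts, filters, overlaps, weights, a replicate block and left-out libraries.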

Additional observations from a re-analysis of the deposited data

Results flagged for a closer look

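At 3 loci the difference between somatic cells and gonidia was not the same in both lights by a test of the interaction (limma, adjusted p under 0.05). The interaction, UV-B difference minus white-light difference, was 5.54 on the log2 scale at Vocar20002813m.g.2.0, 4.01 at scaffold 34, 521074 to 525819, and 3.67 at scaffold 1, 10666599 to 10684799 (limma, adjusted p = 3.5e-05, 0.00095 and 0.0024). The first 2 rest on white-light somatic values listed at 0, so these log2 values depend on the pseudocount. Other rows also overlapped both of them under UV-B, and the part of that overlap was not tested. The last rests on a row that is divided in gonidia.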

How the results depend on the processing

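The number of loci higher in somatic cells, 1527 as reported, was 1004 on FPKM as deposited, 895 with an overlap of 95% (4742 loci tested), 992 with loci overlapped by another row left out (5192 tested) and 791 to 1702 with a library left out. The number higher in gonidia, 2060, was 1194 with an overlap of 95% and 1298 to 1917 with a library left out. The number of bounded loci, 1054, was 274 on FPKM as deposited, 652 with a pseudocount of 0.1, 651 with library weights, 2978 with no filter on low values, 669 with an overlap of 95%, 697 with overlapped loci left out and 346 to 993 with a library left out. Loci found in somatic cells only numbered 1 and in gonidia only 21 with overlapped loci left out, and 5 to 105 and 37 to 53 with a library left out. Interaction calls ranged from 3 to 9 (more positive) and from 0 to 4 (less positive) with a library left out. Fewer loci were tested at 95% overlap and without overlapped loci. Of these, 18.9% and 19.1% were higher in somatic cells and 25.2% and 28% in gonidia. As reported, the shares were 19.1% and 25.8%. The cause of the shifts was not tested. No locus called in somatic cells was called in gonidia, or the reverse, under another setting, apart from 2 with limma-voom. The balance of directions was turned round at loci with no reference ID (-0.767 points on FPKM as deposited, -0.916 to 6.97 with a library left out, the lowest without gonidia C) and at loci under 10 FPKM (0.121 after quantile normalization). For the 24 named loci past the threshold, 244 of 264 values kept the call, 20 lost it and 0 changed sign. For the 6 that were not past it, 9 of 66 values changed sign, at 3 bounded loci, reaching 0.50 at most, and 0 gained a call. The 24 include Vocar20003279m.g.2.0 and the gonidial loci that reached the filter through gonidia alone. Most of the 24 were also picked from the reported fit by size, p or level. A kept call or sign was thus favoured in advance, and no conclusion is drawn from it. Over members that reached 1 FPKM in both cell types, a count added after seeing the data, 1451 loci were higher in somatic cells and 1507 in gonidia.

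The letters B and C are shared by both cell types. Deviations of same-letter libraries from the mean of their cell type correlated at 0.172 (B) and 0.103 (C). With 2 gonidia libraries those deviations mirror each other, so the 2 values are not separate and cannot decide whether a letter marks a pairing. The main fits leave the letter out. Same-letter libraries of a cell type in the 2 lights were not compared in this way. With the replicate block, 1013 loci were higher in somatic cells, 1629 in gonidia and 267 bounded, and 3 and 0 loci passed the interaction, with 505 at an unadjusted p under 0.05, against 147 without the block. With 2 gonidia libraries, the median standard error of a difference was 0.32 log2 units, which limits what could be called.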

Other observations

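At 2 abundant loci, chosen after their values were seen, single libraries stood far apart within a cell type. Vocar20010723m.g.2.0 (scaffold 4, 1161654 to 1164053) was at 14350, 1228 and 15930 FPKM in UV-B somatic A, B and C and at 1069 and 1943 FPKM in UV-B gonidia B and C. White-light somatic A, B and C stood at 1476, 14270 and 1535 FPKM. Its row ended at 1164053 and 1164054 in UV-B somatic A and C and at 1164046 in the other UV-B libraries. Vocar20001087m.g.2.0 (scaffold 16, 1596829 to 1598281) was at 6651, 593 and 14220 FPKM in UV-B somatic cells, against 368 and 836 FPKM in UV-B gonidia. White-light somatic cells stood at 551, 388 and 679 FPKM. Its row ended at 1598281 and 1598267 in UV-B somatic A and C and at 1598252 in the others. Neither difference between the cell types passed (limma, adjusted p = 0.195 and 0.151).

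The largest fitted differences of all loci lay outside the undisturbed set and are given by position after their values were seen. The locus at scaffold 8, 76010 to 101422, was at 1.499, 2.61 and 2.86 FPKM in UV-B somatic cells and at 233 and 1496 FPKM in UV-B gonidia. The locus at scaffold 27, 1128933 to 1129638, was at 193, 186 and 125 FPKM in UV-B somatic cells, against 0 and 3.58 FPKM in UV-B gonidia, while white-light somatic A was listed at 0 and white-light somatic B and C stood at 162 and 201 FPKM.

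Across the 27 scaffolds with at least 100 tested loci, the share higher in somatic cells ranged from 10.6% on scaffold 37 to 28.1% on scaffold 22.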
